A study of Mus musculus with 6 samples.

Results

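The genes of the p53 feedback circuit were followed in granulosa cells (GCs) of the mouse ovary after treatment with cyclophosphamide (CTX), an alkylating agent that damages DNA. They were chosen by gene symbol as 9 of the 54532 genes in the deposited expression table, namely *Trp53*, *Trp73*, *Mdm2*, *Mdm4*, *Usp7*, *Ppm1d*, *Ccng1*, *Ccng2* and *Trp53inp1*. The GCs came from 3-week-old female ICR mice, for which no engineered allele is described and all of which had been primed with PMSG (5 IU), a serum gonadotropin of pregnant mares that drives follicle growth. The PBS group got phosphate buffered saline 22 h after PMSG, the CTX group got 120 mg/kg CTX by a single intraperitoneal injection, and GCs of both groups were collected 6 h later. RNA-seq was run on 3 samples per group, and each sample pooled the GCs of 3 mice, so that a value is an average over animals as well as over cells. Levels are given as FPKM (fragments per kilobase of gene, scaled to sequencing depth). Setting different genes side by side in FPKM rests on the gene length used as divisor, which need not be that of the transcripts present.

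p53, the product of *Trp53*, is a transcription factor that accumulates when DNA is damaged and switches on genes of cell cycle arrest, repair and apoptosis. It is controlled mainly at the level of the protein, because the ubiquitin ligase Mdm2 marks it for degradation and its relative Mdm4 blocks its activity. *Mdm2* is itself a p53 target, and with *Ppm1d*, *Ccng1* and *Trp53inp1*, further targets whose products act back on p53 or on Mdm2, it forms loops that limit or extend the response. In the ovary, GCs of growing follicles divide rapidly and are among the cells that alkylating agents injure first.

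The promoters of the circuit genes are shown first. In what follows *Mdm2*, *Ppm1d*, *Ccng1* and *Trp53inp1* rose and the other genes did not pass the test. Whether the promoter sequences bear on which genes rose was not tested. RefSeq promoters on GRCm38.p6, the build of the deposited coordinates, span 250 bases before to 50 bases after a transcript start. Of the 9 genes 8 matched an entry, and *Trp53inp1*, which had none, was not searched. Each window was searched for the p53 decamer, the 10-base consensus that is its own reverse complement, so both strands were read at once. Exact matches stand in capitals in 4 windows, those of *Ccng1*, *Mdm2*, *Ppm1d* and *Trp53*, and no match lies in the windows of *Ccng2*, *Mdm4*, *Usp7* and *Trp73*. *Ccng1* and *Ccng2* are given as the pair of cyclin G genes that differ most in the values below, the others for their match. The windows lie at chr11:40755237-40755536 on the minus strand for *Ccng1*, chr10:117710709-117711008 on the minus strand for *Mdm2*, chr11:85311004-85311303 on the plus strand for *Ppm1d*, chr11:69580109-69580408 on the plus strand for *Trp53* and chr5:93267323-93267622 on the plus strand for *Ccng2*, each printed 5′ to 3′ along its gene.
Ccng1: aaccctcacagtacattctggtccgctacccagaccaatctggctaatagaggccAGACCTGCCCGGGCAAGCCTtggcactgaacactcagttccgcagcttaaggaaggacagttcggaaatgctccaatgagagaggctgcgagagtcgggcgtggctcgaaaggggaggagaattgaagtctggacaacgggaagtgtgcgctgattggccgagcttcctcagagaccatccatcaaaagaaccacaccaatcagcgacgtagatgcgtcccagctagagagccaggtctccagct
Mdm2: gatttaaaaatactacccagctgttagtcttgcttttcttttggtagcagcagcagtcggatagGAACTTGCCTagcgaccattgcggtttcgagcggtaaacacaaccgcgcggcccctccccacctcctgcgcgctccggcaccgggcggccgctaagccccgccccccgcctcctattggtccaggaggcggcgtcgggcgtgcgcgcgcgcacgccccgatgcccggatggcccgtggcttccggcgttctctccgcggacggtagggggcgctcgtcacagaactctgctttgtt
Ppm1d: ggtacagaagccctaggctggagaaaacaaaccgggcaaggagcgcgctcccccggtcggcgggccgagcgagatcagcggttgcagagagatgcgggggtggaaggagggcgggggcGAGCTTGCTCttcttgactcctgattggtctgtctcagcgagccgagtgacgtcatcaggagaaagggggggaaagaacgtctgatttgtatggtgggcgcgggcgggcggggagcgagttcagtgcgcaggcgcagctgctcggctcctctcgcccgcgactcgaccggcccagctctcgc
Trp53: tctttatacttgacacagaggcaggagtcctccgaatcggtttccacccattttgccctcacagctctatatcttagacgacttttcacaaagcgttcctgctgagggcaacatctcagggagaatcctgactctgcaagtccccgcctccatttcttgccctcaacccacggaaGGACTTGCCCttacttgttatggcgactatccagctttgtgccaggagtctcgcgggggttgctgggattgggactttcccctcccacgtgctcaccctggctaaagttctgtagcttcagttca
Ccng2: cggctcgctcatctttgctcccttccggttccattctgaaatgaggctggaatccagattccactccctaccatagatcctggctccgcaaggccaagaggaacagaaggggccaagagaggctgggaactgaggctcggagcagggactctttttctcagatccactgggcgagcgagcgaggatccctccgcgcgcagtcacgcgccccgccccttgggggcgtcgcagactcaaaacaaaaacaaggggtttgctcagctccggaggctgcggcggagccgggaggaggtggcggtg

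In the *Ccng1* window the capitals cover 20 bases, from 195 to 176 bases before the start, because a second decamer lies directly against the exact one. The search for such an adjoining pair allowed at most 1 mismatch over the 20 bases and no base between the decamers. A mismatch at the fixed C or G of either decamer was not allowed. A pair of this kind is a full form of a p53 response element, and it occurred in 22 (0.067%) of all 32851 promoters in the RefSeq table. Single exact decamers lie 186 to 177 bases before the start in *Mdm2*, 132 to 123 in *Ppm1d* and 75 to 66 in *Trp53*. At least 1 exact decamer is present in 8.36% of all promoters, so a single match is far less rare than the adjoining pair. Among the 10 windows of the 8 circuit genes searched, 4 hold an exact decamer. Whether that share differs from the share of all promoters was not tested. The p53-responsive promoter known for *Mdm2* is intronic and lies outside the window searched. A match is a description of the sequence, and binding was not measured here.

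The samples had between 16005869 and 18455011 reads on genes, rebuilt from the FPKM values, and for a 1 kb gene 3 reads amounted to 0.164 to 0.185 FPKM. The 11 markers of GCs summed to 13310 to 14610 FPKM in the PBS group and 11400 to 12290 FPKM in the CTX group, and most of the sum was *Inha*, at 8556 to 10400 FPKM. None of the 11 passed the test described below (limma, 4 at an unadjusted p below 0.05 against 19.6% of all tested genes, voom 0). In 7 of them every CTX sample was below every PBS sample, against 14.1% of all tested genes. Among these were *Inhbb* (mean 1623 FPKM in PBS and 831 in CTX), *Foxl2* (188 and 110) and the aromatase gene *Cyp19a1*. The log2 fold change was positive in 2, *Amh* (49.4 and 106, every CTX sample above every PBS sample) and *Esr2* (54.1 and 87.3, groups overlapping). *Cyp19a1* was at 60.0, 59.2 and 62.4 FPKM in PBS and at 47.6, 6.61 and 32.5 FPKM in CTX, lowest in CTX replicate 2. The summed markers of other cells were far below the sum of the GC markers but not at 0. Single ones exceeded some GC markers, as the red blood cell gene *Hba-a1* (mean 259 FPKM in PBS) exceeded *Foxl2*. Leukocyte markers (9 genes) summed to 20.8 to 24.9 FPKM in PBS and 26.8 to 71.0 FPKM in CTX. Of the 6 tested, 1 rose, *Cd14* (log2 fold change 1.29, limma, adjusted p = 0.0347), while with voom none passed. Theca markers (5 genes) summed to 55.9 to 57.0 FPKM in PBS and 10.4 to 75.8 FPKM in CTX. CTX replicate 2 stood apart, with the highest leukocyte sum and the lowest theca, endothelial, stroma and red blood cell sums, so the fold change of each tested circuit gene and the difference in each ratio are also given without it. Endothelial markers summed to 1.803 to 5.52 FPKM over the 6 samples, oocyte markers to 37.2 to 92.5, stroma markers to 6.68 to 32.4 and red blood cell markers to 138.1 to 497.1. The only marker at 0 in any sample was the haemoglobin gene *Hba-a2*. Of 10 immediate-early genes, which respond within minutes to many stimuli, 9 rose in CTX (limma, voom 9), against 1.40% of all tested genes. The median log2 fold change over this list, chosen with earlier results of these data known, was 1.81. The part of these shifts in the results below was not tested.

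After CTX, 4 of the 8 circuit genes that could be tested rose and none of them fell, and the 4 were *Ccng1*, *Trp53inp1*, *Mdm2* and *Ppm1d*. The test was limma on log2(FPKM + 0.1) with Benjamini-Hochberg adjustment over all genes whose mean FPKM was at least 0.5, and a gene passed at an adjusted p below 0.05. Of the 14463 genes tested, 1.76% passed, 1.40% higher in CTX and 0.360% lower. *Ccng1* and *Trp53inp1* also changed over 2-fold, the threshold of the study's methods, which 0.961% of tested genes met with 0.802% higher. At an unadjusted p below 0.05 there were 5 circuit genes, against 19.6% of all tested genes. With limma's voom on the rebuilt reads 4 passed, against 1.84% of tested genes, and 6 were at an unadjusted p below 0.05, against 20.9%. *Trp73* was the only member below the filter on low values, and the 8 others passed it on their PBS levels alone. The lowest CTX sample exceeded the highest PBS sample in 5 of the 8 genes, those 4 and *Trp53*, against 15.0% of tested genes, and the reverse held in 1, *Ccng2*, against 14.1%. In these bulk samples, fewer cells of a type and less RNA per cell cannot be told apart. The count of 4 depended on which samples entered the fit. It became 1, with *Ccng1* alone, in each fit that left out PBS replicate 1, 2 or 3 or CTX replicate 3, while it was 4 without CTX replicate 1 or 2. The share of all tested genes that passed moved as well, to 0.484% to 0.733% in those of these fits that gave 1. It was 3.03% without CTX replicate 1 and 3.64% without CTX replicate 2.

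**Figure D1:**
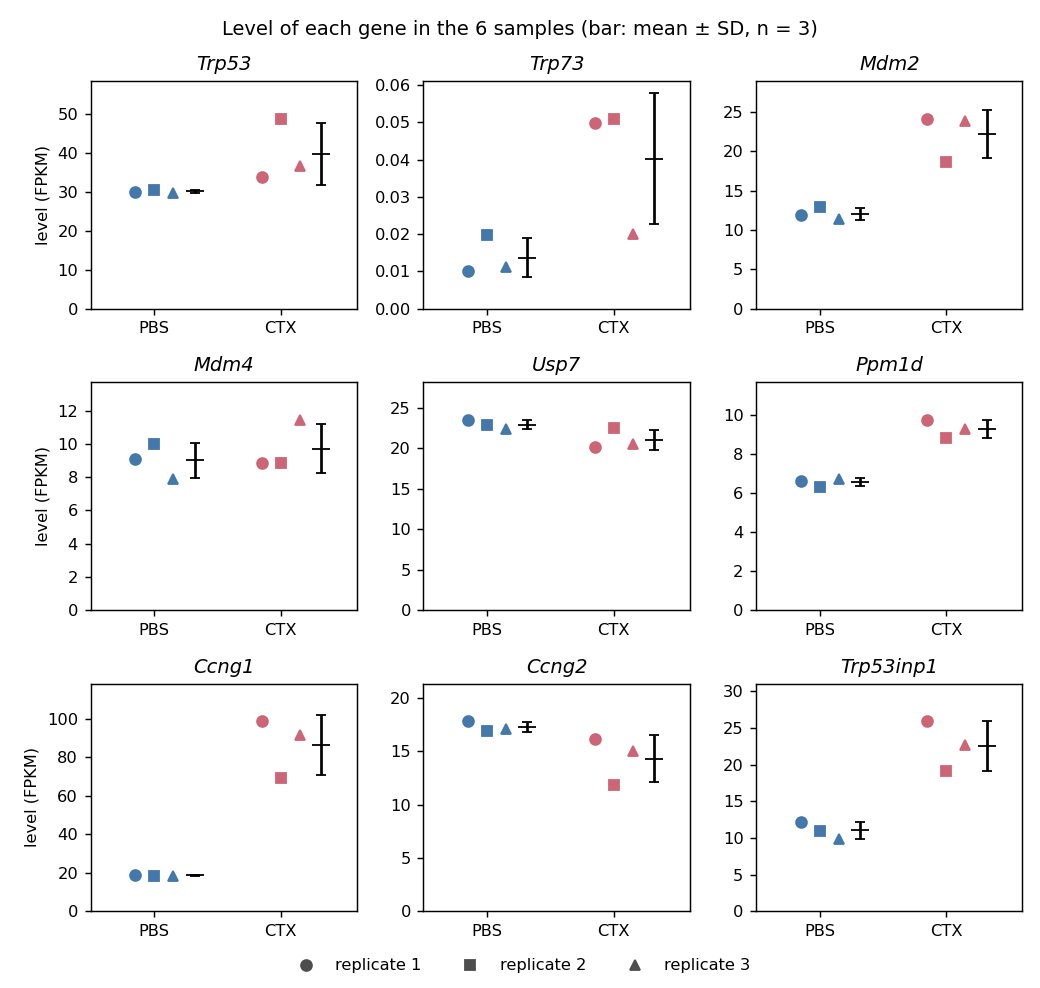
Level of each circuit gene in FPKM (vertical axes starting at 0, a scale of its own for each gene) in the 3 PBS samples (blue) and the 3 CTX samples (red), with symbols for replicates 1 to 3 and a bar for the mean ± SD. The CTX samples of *Ccng1*, at 68.9 to 98.5 FPKM, lie well above the PBS samples at 18.5 to 19.1, whereas the groups overlap in *Mdm4* and *Usp7*.

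*Trp53*, which encodes p53 itself and lies at chr11:69580359-69591873 on the plus strand (GRCm38), had the highest FPKM of the circuit genes in the PBS group. It was at 29.9, 30.5 and 29.8 FPKM in PBS replicates 1 to 3 and at 33.7, 48.6 and 36.5 FPKM in CTX replicates 1 to 3. All CTX samples were above all PBS samples, and CTX replicate 2 was far above the other two. On the log2 scale the change was 0.38 (SE 0.138, 95% interval 0.05 to 0.71), a fold of 1.30, and did not pass the test (limma, adjusted p = 0.217, unadjusted p = 0.0318). Without CTX replicate 2 the log2 fold change was 0.22. The spread of the log2 values was 0.019 (SD, n = 3) in PBS and 0.278 in CTX. A processed pseudogene, *Trp53-ps*, held 22 to 41 reads per sample beside the 1951 to 3490 reads of *Trp53*.

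*Trp73* encodes p73, a relative of p53 that binds similar sites, and lies at chr4:154056253-154140208 on the minus strand. It was at the edge of detection, with 1, 2 and 1 reads under PBS and 5, 5 and 2 reads under CTX, at most 0.0509 FPKM. The reads summed to 4 in PBS and 12 in CTX, a ratio after depth of 2.86 with a 95% interval of 0.866 to 12.2 that covers counting error only. A difference was therefore not detectable at this depth. The antisense gene *Trp73os* and the small RNA gene *Gm26036*, which overlap it, had 0 reads in every sample.

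*Mdm2* rose while its relative *Mdm4* and the deubiquitinase *Usp7* did not pass the test. *Mdm2* lies at chr10:117688875-117710758 on the minus strand and was at 11.9, 12.9 and 11.4 FPKM in the PBS samples. It was at 24.1, 18.7 and 23.9 FPKM in CTX replicates 1 to 3. The groups were well apart, and CTX replicate 2 was the lowest of its group. Its log2 fold change was 0.87 (SE 0.117, 95% interval 0.58 to 1.15), a fold of 1.82, and passed the test (limma, adjusted p = 0.0224), as the gene at rank 462 among the tested genes by size of rise. Without CTX replicate 2 it was 0.99. The adjusted p of *Mdm2* was 0.101 to 0.128 in the fits without PBS replicate 1, 2 or 3 or CTX replicate 3, with 7.54e-05 to 0.138 over all alternatives tried.

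*Mdm4*, whose product binds and blocks p53 without ligase activity of note on its own, lies at chr1:132959484-133030561 on the minus strand. Its level was 9.09, 10.01 and 7.91 FPKM in the PBS samples and 8.86, 8.87 and 11.4 FPKM in the CTX samples. The groups overlapped, and CTX replicate 3 was the highest sample. Its log2 fold change was 0.11 (SE 0.137, 95% interval -0.22 to 0.44; limma, adjusted p = 0.681) and came to -0.02 without CTX replicate 3 and 0.16 without CTX replicate 2. The interval covers falls and rises up to a fold of 1.35, so a change of the size seen in *Mdm2* lies outside it. A processed pseudogene within the gene, *Gm29257*, had 0 to 8 reads per sample and *Mdm4-ps* had 3 to 8, beside 1897 to 3029 reads of *Mdm4*.

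*Usp7* encodes the deubiquitinase that removes ubiquitin from both p53 and Mdm2, and lies at chr16:8689595-8792308 on the minus strand. It was at 23.5, 22.9 and 22.4 FPKM in PBS and at 20.2, 22.5 and 20.6 FPKM in CTX. The groups overlapped through CTX replicate 2, which was within the PBS range. The log2 fold change was -0.12 (SE 0.067, 95% interval -0.28 to 0.04; limma, adjusted p = 0.353), and -0.17 without CTX replicate 2. The small RNA gene *Gm25805* inside it had 0 reads in every sample.

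*Ppm1d* encodes Wip1, a phosphatase that removes phosphates from p53 and from the kinases that signal DNA damage. It lies at chr11:85311244-85347066 on the plus strand and was at 6.63, 6.33 and 6.73 FPKM in PBS and 9.76, 8.83 and 9.32 FPKM in CTX. The groups were well apart and both were narrow, with SDs of 0.046 and 0.071 on the log2 scale. The rise was the smallest of the 4, with a log2 fold change of 0.50 (SE 0.073, 95% interval 0.32 to 0.67; limma, adjusted p = 0.0309), a fold of 1.41. It was 0.53 without CTX replicate 2. Its adjusted p was 0.124 to 0.177 without PBS replicate 1, 2 or 3 or CTX replicate 3, and 0.000352 to 0.177 over all alternatives.

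The cyclin G genes parted. *Ccng1* encodes cyclin G1, which brings a phosphatase to Mdm2, and lies at chr11:40748552-40755311 on the minus strand. It was at 19.1, 18.6 and 18.5 FPKM in the PBS samples and at 98.5, 68.9 and 91.4 FPKM in the CTX samples. The lowest CTX sample, replicate 2, was still over 3 times any PBS sample. The log2 fold change was 2.18 (SE 0.135, 95% interval 1.86 to 2.51), a fold of 4.54 (limma, adjusted p = 0.00134), and was 2.33 without CTX replicate 2. *Ccng1* held rank 57 among all tested genes by size of rise and passed the test in all 17 alternatives, with an adjusted p of 2.19e-06 to 0.0271.

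*Ccng2* encodes cyclin G2, a relative that is known more as a target of FOXO factors than of p53, and lies at chr5:93267257-93276231 on the plus strand. Its level was 17.8, 16.9 and 17.1 FPKM in PBS and 16.1, 11.8 and 15.0 FPKM in CTX. Every CTX sample was below every PBS sample, and CTX replicate 2 was the lowest. The log2 fold change was -0.28 (SE 0.122, 95% interval -0.57 to 0.01) and did not pass the test (limma, adjusted p = 0.269). Without CTX replicate 2 it was -0.15.

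*Trp53inp1* encodes a stress protein of the nucleus that works with kinases to phosphorylate p53, and lies at chr4:11156431-11174379 on the plus strand. It was at 12.2, 10.97 and 9.84 FPKM in PBS and at 25.9, 19.1 and 22.6 FPKM in CTX. The groups were well apart, with CTX replicate 2 the lowest of its group. The rise on the log2 scale was 1.02 (SE 0.135, 95% interval 0.69 to 1.35), a fold of 2.03 (limma, adjusted p = 0.0219), and was 1.13 without CTX replicate 2. As the interval shows, the fold cannot be placed above or below 2 with confidence. Its adjusted p was 0.0806 to 0.124 without PBS replicate 1, 2 or 3 or CTX replicate 3, and 0.000128 to 0.124 over all alternatives.

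**Figure D2:**
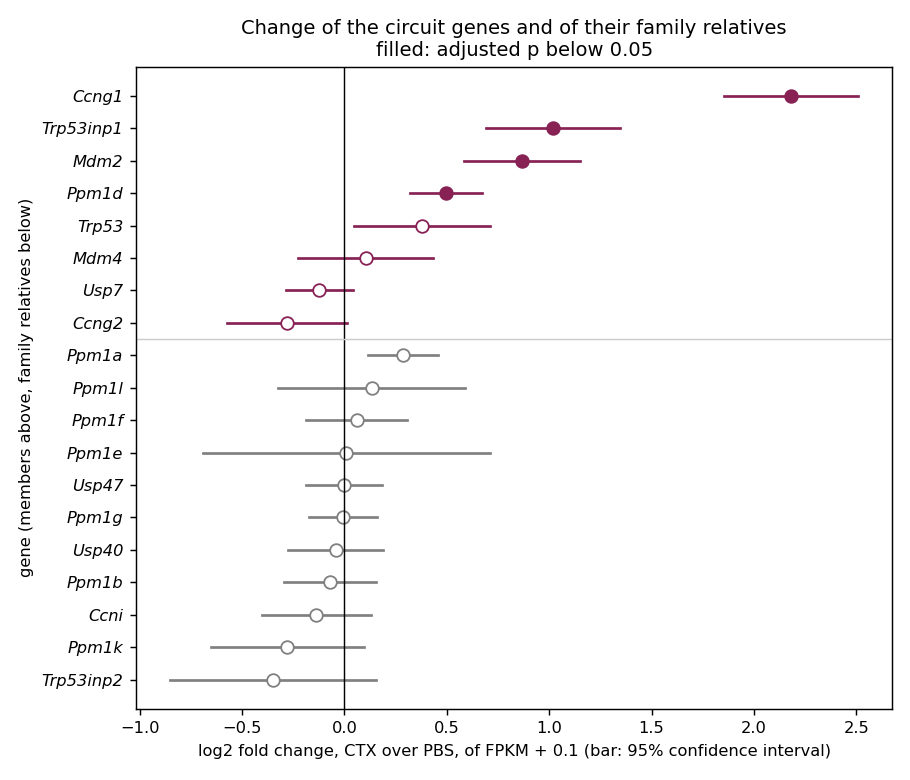
Log2 fold change of FPKM + 0.1, CTX over PBS (horizontal axis), for the 8 tested circuit genes (purple, above) and their 11 tested family relatives (grey, below), with bars for the 95% interval and filled points where the adjusted p was below 0.05. *Ccng1* stands at 2.18, *Trp53inp1*, *Mdm2* and *Ppm1d* at 1.02, 0.87 and 0.50, and none of the relatives is filled.

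The circuit genes were spread more widely among CTX samples than among PBS samples. The SD of the log2 values was larger in CTX in each of the 8 tested genes, and over all tested genes its median was 0.104 in PBS and 0.180 in CTX. CTX replicate 2 was the lowest CTX sample for 5 genes (*Mdm2*, *Ppm1d*, *Ccng1*, *Ccng2* and *Trp53inp1*), the highest for 3 (*Trp53*, *Trp73* and *Usp7*) and the middle one for *Mdm4*. Thus all 4 genes that rose were lowest, and *Trp53* highest, in the same sample. Over all tested genes CTX replicate 2 was the lowest of the 3 in 37.4% and the highest in 41.3%.

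The order of levels by FPKM changed between the groups. In PBS it ran from *Trp53* (30.1 ± 0.407 FPKM, mean ± SD, n = 3) through *Usp7* (22.9 ± 0.527), *Ccng1* (18.7 ± 0.308), *Ccng2* (17.3 ± 0.469), *Mdm2* (12.1 ± 0.742), *Trp53inp1* (11.01 ± 1.19), *Mdm4* (9.003 ± 1.05) and *Ppm1d* (6.56 ± 0.212) to *Trp73*. *Mdm2* overlapped *Trp53inp1*, and *Trp53inp1* overlapped *Mdm4*, while the other neighbours did not overlap in any sample. In CTX, *Ccng1* came first (86.3 ± 15.4 FPKM), ahead of *Trp53* (39.6 ± 7.95). *Trp53inp1* (22.5 ± 3.41), *Mdm2* (22.2 ± 3.08) and *Usp7* (21.1 ± 1.24) followed with overlapping samples, then *Ccng2* (14.3 ± 2.24), and *Mdm4* (9.72 ± 1.48) and *Ppm1d* (9.30 ± 0.464) overlapped each other. *Ccng1* thus passed *Trp53* and *Usp7*, and *Mdm2* and *Trp53inp1* came up to the level of *Usp7*.

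**Figure D3:**
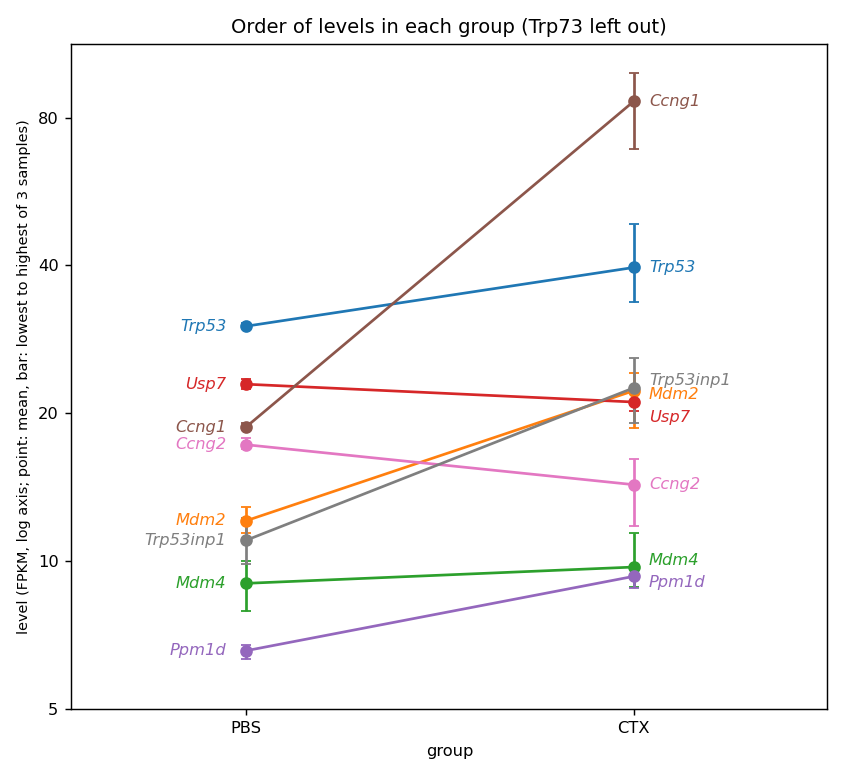
Mean level in FPKM (log axis) of 8 circuit genes in PBS and CTX, with bars from the lowest to the highest of 3 samples. The line of *Ccng1* crosses those of *Usp7* and *Trp53*, from 18.7 to 86.3 FPKM, and those of *Mdm2* and *Trp53inp1* meet that of *Usp7* near 21.1 FPKM.

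Ratios within a sample, which do not depend on the scaling between samples, were compared for 5 pairs with two-sided exact permutation tests, whose smallest possible p with 3 against 3 samples is 0.1. The log2 ratio of *Ccng1* to *Ccng2* was the tightest, at 0.10, 0.14 and 0.11 in PBS and 2.60, 2.53 and 2.60 in CTX. The difference was 2.46 (exact permutation p = 0.1, adjusted over the 5 pairs 0.125), far larger than the SDs of 0.018 and 0.038, so that CTX replicate 2, low in both genes, matched the others in their ratio, and was 2.48 without that sample. For *Mdm2* to *Mdm4* it was 0.39, 0.36 and 0.52 in PBS and 1.43, 1.06 and 1.06 in CTX, a difference of 0.76 (exact permutation p = 0.1, adjusted 0.125), or 0.82 without CTX replicate 2.

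The balance of *Mdm2* to *Trp53* differed among the CTX samples. Its log2 ratio was -1.32, -1.24 and -1.38 in PBS and -0.48, -1.38 and -0.61 in CTX. CTX replicates 1 and 3 lay above PBS and replicate 2 at the PBS level. The difference of 0.489 was about the size of the CTX SD of 0.485 (exact permutation p = 0.4, adjusted 0.4). Without CTX replicate 2 the difference was 0.77 (exact permutation p = 0.1, the smallest that 3 against 2 samples allow). Over alternatives its p ranged from 0.1 to 0.5.

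Against relatives of the same family, the ratios also separated the groups. *Trp53inp1* to *Trp53inp2*, a relative with a role in autophagy, had log2 ratios of -1.18, -1.20 and -1.41 in PBS and -0.11, 0.32 and 0.11 in CTX. The difference was 1.37 (exact permutation p = 0.1, adjusted 0.125), or 1.26 without CTX replicate 2. *Ppm1d* to *Ppm1a*, a phosphatase of the same family, had log2 ratios of -0.38, -0.32 and -0.31 in PBS and 0.00, -0.21 and -0.17 in CTX. Its difference of 0.21 was the smallest of the 5 (exact permutation p = 0.1, adjusted 0.125), with a p of 0.2 without PBS replicate 1, and came to 0.25 without CTX replicate 2.

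**Figure D4:**
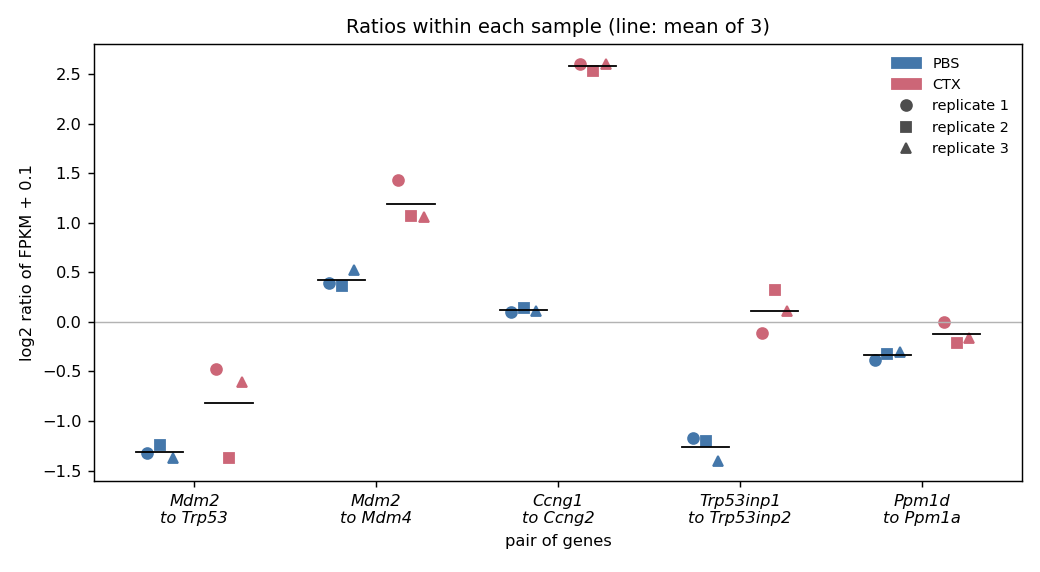
Log2 ratio of FPKM + 0.1 (vertical axis) of 5 gene pairs in each PBS (blue) and CTX (red) sample, with symbols for replicates and a line for the mean of 3. The groups are apart in 4 pairs, most in *Ccng1* to *Ccng2* (0.12 and 2.58), while in *Mdm2* to *Trp53* CTX replicate 2, at -1.38, lies with the PBS samples.

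The genes whose profile over the 6 samples was nearest to a circuit gene were found by the root mean square (RMS) difference of log2 values, each taken from its own PBS mean. For *Mdm2* these were *Apaf1*, the scaffold of the apoptosome (RMS 0.045), *Mcam*, an adhesion molecule (0.056), and *Ei24* (0.078), where the median over all tested genes was 0.665. *Apaf1* was at 5.01, 5.04 and 4.51 FPKM in PBS and 9.55, 7.74 and 9.26 FPKM in CTX, again lowest in CTX replicate 2. For *Ccng1* they were *Dglucy* (0.046), *Mab21l3* (0.096) and *Sesn2* (0.110), with a median of 1.57. *Dglucy*, which encodes a mitochondrial enzyme of D-glutamate metabolism, was at 4.05, 3.84 and 4.08 FPKM in PBS and 20.7, 15.8 and 19.9 FPKM in CTX. For *Trp53* they included *Pacs1* (0.020) and *Fbxo36* (0.031), with a median of 0.376. *Pacs1*, which encodes a sorting protein of the trans-Golgi network, was at 15.9, 15.7 and 15.5 FPKM in PBS and 17.6, 24.8 and 19.1 FPKM in CTX. Being chosen by profile, both genes share the high CTX replicate 2 of *Trp53*, as *Apaf1* shares the low one of *Mdm2*, so this is no separate result. Neither *Pacs1* nor *Fbxo36* passed the test.

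Of 60 listed regulators of p53 other than the circuit genes, 58 were tested, 2 rose and none fell (limma, 12 at an unadjusted p below 0.05, voom 2). These shares, 3.45% past the test and 12 of 58 at the unadjusted threshold, are near the 1.76% and 19.6% of all tested genes, so the counts say nothing particular of the list. Every CTX sample was above every PBS sample in 15 of the 58 and below in 5, against 15.0% and 14.1% of tested genes, and the log2 fold change was positive in 40, against 48.6%. Their median log2 fold change was 0.07, beside -0.01 over all tested genes. *Topors*, a ligase that attaches ubiquitin and SUMO to p53, was at 15.8 ± 0.871 FPKM (mean ± SD, n = 3) in PBS and 25.7 ± 0.866 in CTX (log2 fold change 0.70, SE 0.068, limma, adjusted p = 0.00678), and the log2 fold change was 0.67 without CTX replicate 2. *Zfp385a*, a cofactor that directs p53 to genes of cell cycle arrest, was at 3.41, 5.25 and 4.69 FPKM in PBS and 18.9, 11.6 and 18.2 FPKM in CTX (log2 fold change 1.83, SE 0.238, limma, adjusted p = 0.0211), and 2.06 without CTX replicate 2. The 10 kinases of the list, among them those that phosphorylate p53 after damage, had a median of 0.01 and none passed (limma, 0 at an unadjusted p below 0.05, voom 0). For the 6 tested genes of nucleolar and ribosomal proteins that bind Mdm2 the log2 fold changes were 0.26 to 0.40 with a median of 0.33, where 48.6% of all tested genes were above 0, and none passed (limma, 4 at an unadjusted p below 0.05 against 19.6% of all genes, voom 0). Every CTX sample was above every PBS sample in 4 of the 6. CTX replicate 2 was the highest sample in each of the 6, and their log2 fold changes without it are not given here. *Cdkn2a*, which encodes the Mdm2 inhibitor Arf, was below the filter at 1 to 6 reads per sample. The count of 2 regulators became 0 without PBS replicate 2 or 3, 1 without PBS replicate 1 or CTX replicate 3, and 3 without CTX replicate 2.

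None of the 10 cyclin G partners, the cyclin G-associated kinase gene *Gak* and subunits of protein phosphatase 2A, passed the test (limma, 3 at an unadjusted p below 0.05, voom 0 with 2 unadjusted). Their median log2 fold change was 0.08, from -0.53 to 0.36. Of 13 family relatives of the circuit genes 11 were tested and none passed (limma, 1 at an unadjusted p below 0.05, voom 0 with 1 unadjusted), with a median of -0.01. With 1.76% of all genes past the test and 19.6% at an unadjusted p below 0.05, counts of 0 in lists of this length are near the background. *Trp63*, the third gene of the p53 family, was below the filter. Its reads were 18, 17 and 15 under PBS and 22, 89 and 29 under CTX, with CTX replicate 2 far above the rest.

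Of 34 other well-known p53 targets 33 were tested, and 18 rose and none fell (limma, 25 at an unadjusted p below 0.05, voom 18). This was 54.5% of the list against 1.40% of tested genes that rose, with a median log2 fold change of 1.05, close to that of *Trp53inp1*. The list was chosen with earlier results of these data known, so this contrast is no independent support. The largest rises past the test were *Gdf15*, a stress cytokine, *Pmaip1* and *Bbc3*, which encode the apoptosis proteins Noxa and Puma, *Phlda3*, an inhibitor of Akt, and *Eda2r*, a death receptor. *Gdf15* went from 0.662 ± 0.102 to 17.7 ± 5.64 FPKM (mean ± SD, n = 3) and *Phlda3* from 1.61 ± 0.0956 to 21.8 ± 3.33, log2 fold changes of 4.50 and 3.67 (limma, adjusted p = 0.00119 and 0.000451). *Pmaip1*, *Eda2r* and *Bbc3* had log2 fold changes of 3.99, 3.18 and 2.84. Without CTX replicate 2 the log2 fold change was 4.29 for *Gdf15*, and 3.01 to 4.14 for the other 4. *Pmaip1*, which is among the 18, and *Fas*, which is not (limma, adjusted p = 0.0717), passed the filter on low values through their CTX levels. *Fas* is named after its values were seen. Every CTX sample was above every PBS sample in 26 of the 33. *Gdf15* differed from the 4 circuit genes that rose in being highest, at 22.6 FPKM, in CTX replicate 2, where *Phlda3*, *Pmaip1*, *Eda2r* and *Bbc3* were lowest. The noncoding *Trp53cor1* was not tested, at 4, 8 and 2 reads in PBS and 32, 18 and 28 reads in CTX. The count of 18 was 21 without CTX replicate 2 and 11 without PBS replicate 3.

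**Figure D5:**
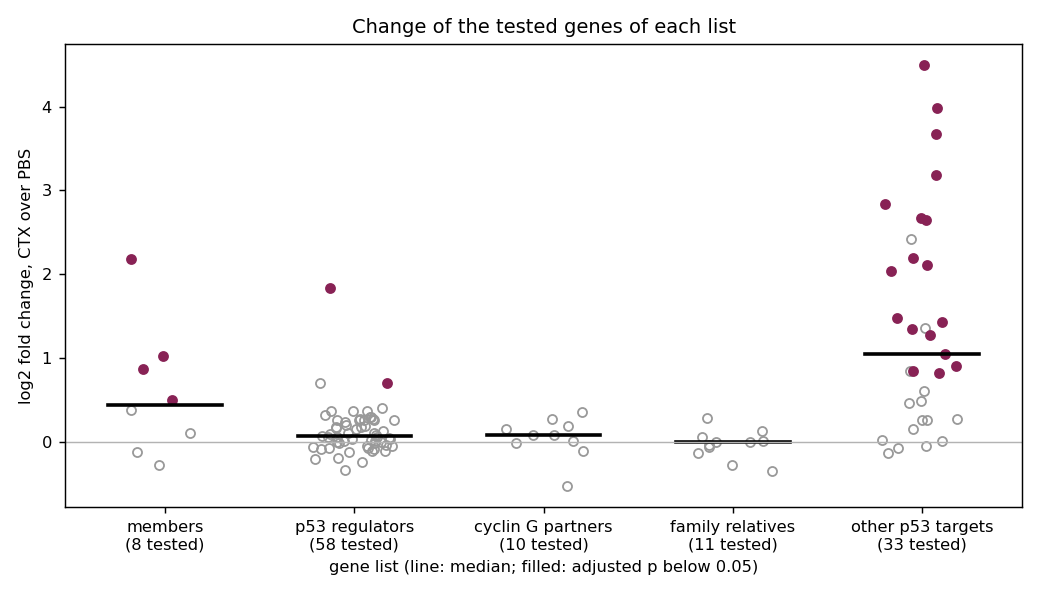
Log2 fold change, CTX over PBS (vertical axis), of each tested gene of the circuit and of 4 related lists, with a line for the median of each list and filled points where the adjusted p was below 0.05. The medians are 0.44 for the circuit genes, 0.07 for p53 regulators, 0.08 for cyclin G partners, -0.01 for family relatives and 1.05 for other p53 targets.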

How the data were processed

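RNA-seq libraries (NEBNext Ultra) of GCs were sequenced and processed at a company. The submitters' processing notes name CASAVA 1.8, fastp, HISAT2 2.0.5, featureCounts 1.5.0-p3, DESeq2 1.20.0 and mm10, and the strand setting of the counting is not given in the sources used here. The authors deposited FPKM values that also carry a scaling between samples. Their table also gives, as the authors' own comparison, a mean signal per group, a log2 fold change, a p-value and an adjusted p-value, none of which was used. No per-sample column was left unused.

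FPKM values were compared as log2(FPKM + 0.1), which understates changes of low genes, with limma 3.58.1 (lmFit, eBayes with trend) in R 4.3.3, where the mean FPKM over the 6 samples reached 0.5. Benjamini-Hochberg adjustment ran over the two-sided p-values of the 14463 genes tested. FPKM times gene length came out as whole multiples of 1 read within 0.05 for 100% of values, so reads were rebuilt and compared with limma's voom as an alternative. Scripts were tested on simulated data. Python 3.11.15, pandas 2.3.3, SciPy 1.17.1 and matplotlib 3.10.9 were used for ratios, promoters and plots. Intervals on reads cover counting error only.

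The circuit genes and all lists were chosen with earlier results of these data known. Genes named are all members, the 3 nearest profiles of *Mdm2*, *Ccng1* and *Trp53*, overlapping genes and cell type markers. Up to 5 rises and 5 falls of largest size past the test are also named from each list. The immediate-early list is left out of this rule and is only counted. One gene that this rule names is not reported here. One symbol of the regulator list, *Trp53rk*, was not matched. Samples with the same replicate number hold different mice, and their deviations from the group means correlated at 0.0556, 0.0242 and 0.00581, so the fit has no block on it. P-values measure the spread between these pooled samples. The alternatives tried were a pseudocount of 1 or of 0.01, a mean FPKM minimum of 5 or none, 3 other scalings, eBayes without trend, arrayWeights, voom, a replicate block and each sample left out in turn.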

Additional observations from a re-analysis of the deposited data

How the results depend on the processing

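Of the 4 circuit genes past the test, *Ccng1* passed in all 17 alternatives. The count of 4 became 8 with arrayWeights, which called 39.8% of all tested genes. It became 1 with the replicate block, which called 0.366%. Under the block the adjusted p (limma) was 0.138 for *Mdm2*, 0.14 for *Ppm1d* and 0.069 for *Trp53inp1*. Leaving out 1 sample gave 1 to 4, where 0.484% to 3.64% of all tested genes were called. *Ppm1d* also missed the threshold with no filter (limma, adjusted p = 0.0501) and with eBayes without trend (0.0526). The count of circuit genes also over 2-fold became 1 with a pseudocount of 1, quantile normalization, scaling to library totals, voom or the replicate block, and was 1 to 2 with 1 sample left out. *Trp53inp1*, at a fold of 2.03, is the gene at that border. With arrayWeights, 24 p53 regulators, 4 cyclin G partners, 3 family relatives and 28 other p53 targets passed. The replicate block left 0 regulators and 11 other targets, and leaving out 1 sample gave 0 to 3 regulators and 11 to 21 other targets. With 1 sample left out, the log2 fold change of *Mdm4* ran from -0.0156, without CTX replicate 3, to 0.184, without PBS replicate 2, and with arrayWeights it was 0.29 (limma, adjusted p = 0.032). No other log2 fold change of a circuit gene and no ratio changed sign, and no scaling moved the median of all genes by over 0.1. No pairing by replicate number was seen, since no same-number correlation of deviations exceeded 0.1 and not every sample correlated best with its own number. With so few samples this check could miss a weak shared batch. The log2 fold changes of the circuit genes were the same with the block, so a call lost under it says nothing of the size of a change. Depth limits *Trp73*, at 1 to 5 reads per sample.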
